A study of Mus musculus with 6 samples.

Results

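Platelet-derived growth factors (PDGF) and vascular endothelial growth factors (VEGF) are related secreted dimers that act through receptor tyrosine kinases. PDGF ligands act on mesenchymal cells such as fibroblasts, pericytes and theca cells through PDGFRα and PDGFRβ. VEGF ligands act on blood and lymphatic endothelium through FLT1, KDR and FLT4, with the neuropilins as co-receptors. In the follicle the granulosa layer itself has no vessels, and the vessels and mesenchymal cells that carry these receptors lie outside its basement membrane. The transcripts of 10 genes of these families are described here in cultured mouse granulosa cells: the PDGF ligand genes Pdgfa, Pdgfb and Pdgfc, the PDGF receptor genes Pdgfra and Pdgfrb, the VEGF ligand genes Vegfb and Vegfc, the VEGF receptor genes Flt1 and Kdr, and the co-receptor gene Nrp1. They were chosen by name from the 27151 genes of the deposited table, and all 10 were found there. The 10 genes were named with earlier results of these data known, so the adjusted p-values below place each gene in a fit over all genes and are descriptions, not independent evidence.

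The cells came from punctured mouse follicles. They grew in serum for 24 h and went without it for 12 h, after which the GSK4112 cultures received the compound for 24 h and the Control cultures did not, with fresh medium every 12 h. The compound is a synthetic agonist of NR1D1 (REV-ERBα), a nuclear receptor that represses transcription and is part of the circadian clock. There were 3 GSK4112 libraries and 3 Control libraries, all from mouse ovary. The labels name no strain, age or vehicle, the unit they give for the dose is not a concentration, and the design text speaks of treatment in vivo while the protocol describes culture. No label ties a library to its own culture or animal, so the p-values rest on a spread between libraries that may be technical.

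Values are FPKM, fragments per kilobase of exon scaled to library size, which is a level per length and can be compared between genes. The steps of the low values gave 16559256 to 17382509 fragments in the GSK4112 libraries and 16638143 to 18158273 in the Control libraries. These totals are estimates. Fragments added up over genes came to more than the total in every library, such as 1.79e+07 against 16904494 in GSK4112 replicate 1. The granulosa label was checked with 17 markers of these cells. They summed to between 2595 and 3429 FPKM in GSK4112 libraries and between 3462 and 4038 FPKM in Control libraries, led by Inha and Cyp11a1. The highest GSK4112 sum lay just below the lowest Control sum, and a sum led by 2 genes cannot settle the label. Of 15 tested, 2 fell, Fst and Hsd17b1, and with the block Inhba (adjusted p = 0.0266 in limma) and Inhbb (0.00183) were lower as well and Kitl higher (0.0257). In all, 12 of the 15 had a log2 change below 0 (median -0.18). The widest gaps in mean level were those of Cyp11a1 (418 FPKM with GSK4112 and 751 in Control) and Inhba (124 and 335). Gja1 (log2 change -0.12), Nr5a1 (-0.03), Amhr2 (0.05) and Gata4 (0.34) were not called in either fit, so the markers did not move as one. Cyp19a1, the aromatase gene that defines estrogen-making granulosa cells, was between 0.0131 and 0.165 FPKM in GSK4112 libraries and between 0.0244 and 0.154 FPKM in Control libraries. Amh was low too, at 0.253 to 0.448 FPKM in GSK4112 libraries and 0.360 to 0.660 FPKM in Control libraries. The 15 tested markers had a mean of at least 1 FPKM. The replicate 1 library stood apart in each group. Added up, 20 mitosis genes reached 237 FPKM in GSK4112 replicate 1 against 43.1 and 47.7 in the other GSK4112 libraries, and 319 in Control replicate 1 against 77.4 and 85.9 in the other Control libraries. Same-numbered libraries deviated together from their group means, so a second fit took the replicate number as a block, and its value is given where it changes the call of a gene described below. With the block 9 of the 20 mitosis genes were lower and none higher, against none without it. Over all genes tested the block gave 3.82% lower and 3.07% higher. All 20 mitosis genes had a log2 change below 0 (median -0.55, against 0.0543 over all genes tested), and the share of all genes below 0 is not given here.

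Of the 5 ligand genes 4 had a mean of at least 1 FPKM over the 6 libraries and Vegfc did not, and of the 5 receptor and co-receptor genes Nrp1 did. In GSK4112 libraries the order of mean levels began with Vegfb (15.8 ± 0.829 FPKM), Pdgfc (13.4 ± 3.06) and Pdgfb (10.3 ± 2.995; SD, n = 3), in which each gene overlapped with the next and every Pdgfb value lay below every Vegfb value, and Pdgfa and Nrp1 came after them. In Control libraries Pdgfb had the highest mean level of the 10 genes, 29.8 ± 5.99 FPKM (SD, n = 3), and was followed by Vegfb, Pdgfc, Pdgfa and Nrp1. Pdgfa and Pdgfc did not overlap in GSK4112 libraries and did in Control libraries. The remaining 5 genes, Pdgfra, Pdgfrb, Vegfc, Kdr and Flt1, had a mean under 1 FPKM over the 6 libraries and were not tested. Among them Pdgfrb, Vegfc and Pdgfra overlapped in both groups, and Kdr and Flt1, which overlapped too, were lowest.

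**Figure D1:**
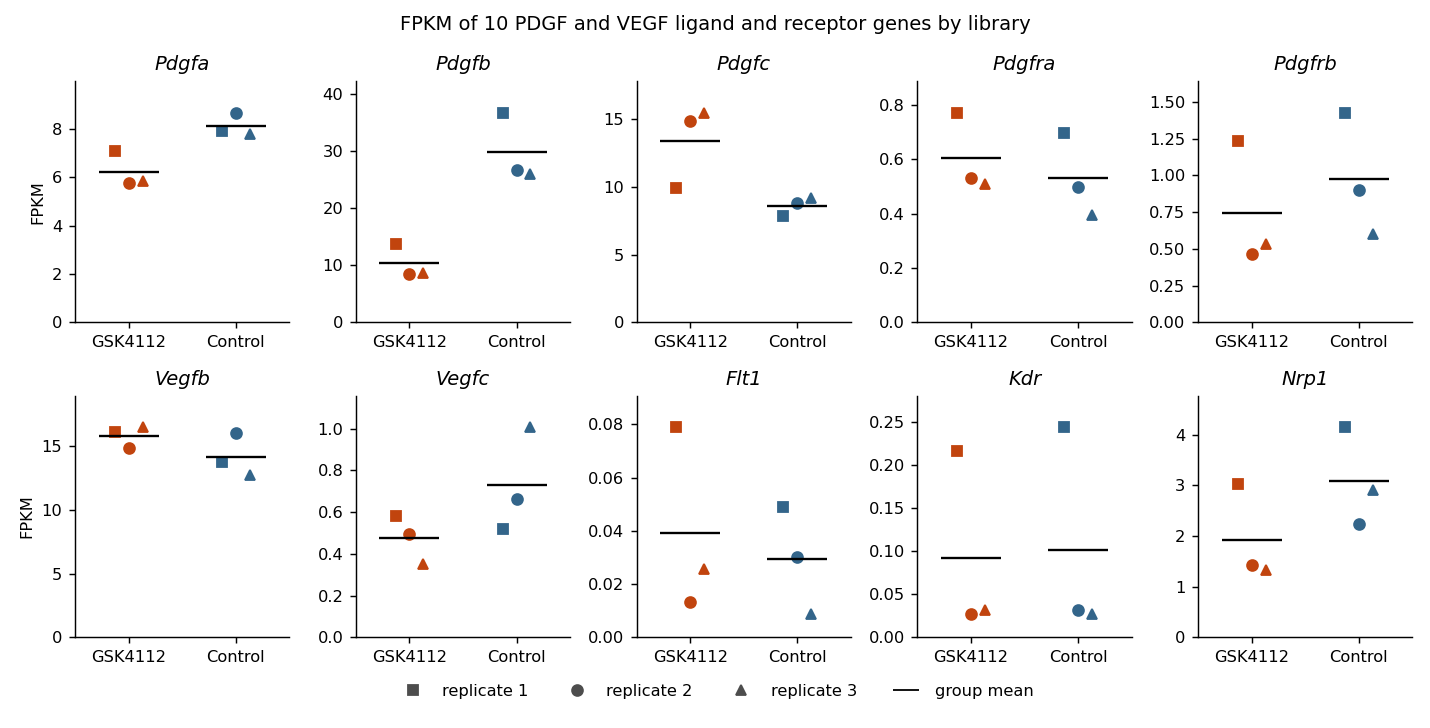
FPKM of each of the 10 genes (vertical axes, each from 0) in the 3 GSK4112 libraries and the 3 Control libraries; symbols mark the replicate number and lines the group means. Pdgfb is the gene with the widest gap between the groups, and Kdr is near 0 except in both replicate 1 libraries.

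Pdgfb, whose product forms the PDGF-BB dimer that binds both PDGF receptors and is known for recruiting pericytes to vessels, was lower with GSK4112 (ENSMUSG00000000489; GRCm38 chromosome 15, 79995874 to 80014977, minus strand). It was at 13.8, 8.51 and 8.69 FPKM in GSK4112 replicates 1, 2 and 3, against 36.7, 26.7 and 25.99 FPKM in Control replicates 1, 2 and 3. Every GSK4112 value lay below every Control value, and replicate 1 was the highest library of each group. The mean with GSK4112 was 0.347 times the Control mean, and the ratio within same-numbered libraries was 0.376, 0.319 and 0.334. On the log2(FPKM + 1) scale it fell by 1.46 ± 0.21 (SE of limma), with an adjusted p of 0.0421 over all genes. The log2 change ranked 40 among the falls of 12181 genes tested. With the replicate block its adjusted p in limma was 0.00183. The call was lost without GSK4112 replicate 2 (adjusted p = 0.207 in limma) or GSK4112 replicate 3 (0.214), and without Control replicate 1 (0.0549), 2 (0.12) or 3 (0.136), while the log2 change stayed between -1.66 and -1.30. Endothelium is a known source of PDGF-B. The summed level of 14 endothelial markers was lower too, at 2.08 to 2.33 FPKM in GSK4112 libraries and 2.60 to 3.24 FPKM in Control libraries. No marker was above 0.710 FPKM in any library, and single markers differed. Esam and Tek were lower with GSK4112 without overlap between the groups. Pecam1 overlapped, and so did Cdh5, with 17, 7 and 6 fragments in GSK4112 libraries and 7, 5 and 7 in Control libraries. The part of endothelial cells, and of the lower granulosa marker sum, in the Pdgfb values was not tested. Here and below, fewer cells that make a transcript and less of it per cell cannot be told apart in bulk RNA.

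Over all genes, 126 of 12181 were called (1.03%), 76 lower (0.624%) and 50 higher (0.41%), and with median-of-ratios scaling 105 were lower and 39 higher. With the block 6.89% were called, 465 lower (3.82%) and 374 higher (3.07%). Without the replicate 1 libraries of both groups 6.92% were called, 3.75% lower and 3.17% higher. Of the 5 members tested, Pdgfb was called lower and 4 were not called; with the block, and without both replicate 1 libraries, Pdgfc was called higher as well. The members were chosen with this contrast in view, so nothing is read from their count. Groups that do not overlap were common in this table, at 23.6% of the genes tested: 7.9% had every GSK4112 value below Control and 15.7% every value above. Among the members that held for Pdgfb and Pdgfa (lower) and Pdgfc (higher). For 3 against 3 libraries an exact two-sided permutation test cannot give a p below 0.1, which it gave for each of these genes.

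The genes with a pattern over the 6 libraries most like that of Pdgfb were Fhdc1 (Pearson r = 0.998), Tra2b (0.997) and Timm17a (0.997), out of 7495 genes with a mean of at least 5 FPKM and a symbol that is no predicted-gene name. The correlation is a description, since it was taken as the highest of many and the points share their libraries. Their changes were smaller. Fhdc1 was at 36.4, 32.4 and 33.0 FPKM in GSK4112 libraries, against 46.5, 43.9 and 43.3 FPKM in Control libraries (adjusted p = 0.0857 in limma).

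Pdgfa encodes PDGF-A, the ligand that acts through PDGFRα (ENSMUSG00000025856; chromosome 5, 138976014 to 138997370, minus strand). It was at 7.07, 5.75 and 5.83 FPKM in GSK4112 libraries, against 7.91, 8.67 and 7.77 FPKM in Control libraries. The groups did not overlap, but GSK4112 replicate 1 and Control replicate 3 lay close together. The log2 change was -0.34 ± 0.1 (SE) and was not called (adjusted p = 0.175 in limma, 0.107 with the block). Reads from Pdgfa and from 6330403L08Rik, on the opposite strand, share 26.1% of its exon bases, and the strand setting of the counting is not given in the sources used here. 6330403L08Rik was at 1.75 to 2.25 FPKM in GSK4112 libraries and at 1.23 to 2.08 FPKM in Control libraries.

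Pdgfc had higher values with GSK4112. It encodes PDGF-C, a ligand with a CUB domain that is secreted in a latent form and acts mainly through PDGFRα once proteases have removed that domain (ENSMUSG00000028019; chromosome 3, 81036416 to 81214040, plus strand). It was at 9.88, 14.8 and 15.5 FPKM in GSK4112 libraries, against 7.81, 8.79 and 9.20 FPKM in Control libraries. All GSK4112 values were above all Control values, and replicate 1 was the lowest library of each group. The log2 change was 0.56 ± 0.17 (SE), which was not called without a block (adjusted p = 0.174 in limma) and was called with it (0.0363). Without the replicate 1 libraries of both groups the log2 change was 0.69 (adjusted p = 0.0119 in limma). Within same-numbered libraries the FPKM ratio was 1.26, 1.69 and 1.68.

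The promoter window of Pdgfc is shown because it held the matches to a TEAD and a serum response motif among the members. The 250 bases before its RefSeq start (GRCm38.p6, chr3:81036166-81036415, plus strand) hold a GGAATG, the core letters that TEAD factors bind, and a CArG box, the element bound by serum response factor. Both are in capitals.

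Pdgfc: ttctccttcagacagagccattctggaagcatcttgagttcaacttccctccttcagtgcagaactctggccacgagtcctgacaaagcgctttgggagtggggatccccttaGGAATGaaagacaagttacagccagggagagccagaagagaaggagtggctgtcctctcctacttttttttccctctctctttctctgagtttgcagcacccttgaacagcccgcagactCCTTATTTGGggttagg

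The CArG box lies from position -17 to -8 and the GGAATG from -137 to -132, counted from the start. A CArG box was found in 1.47% of the 32851 mouse promoter windows of the same length and GGAATG in 12.6%, on either strand, and no other member with a window held either. These matches describe letters and not bound sites.

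The 4 PDGF ligand genes together differed in make-up between the groups. Pdgfd, the other CUB domain ligand, which acts through PDGFRβ and is a family gene outside the 10, was the most abundant of them at 42.7, 44 and 41.1 FPKM in GSK4112 libraries, against 52.9, 64.5 and 66.6 FPKM in Control libraries. Its groups did not overlap, and its log2 change of -0.51 ± 0.11 (SE) was called with the block (adjusted p = 0.0401 in limma) and not without (0.0857). The summed level of the 4 genes was 73.5, 73.1 and 71.1 FPKM in GSK4112 libraries, against 105, 109 and 109.5 FPKM in Control libraries. Pdgfb made up 18.8, 11.6 and 12.2% of that sum in GSK4112 libraries, against 34.8, 24.6 and 23.7% in Control libraries. Pdgfc made up 13.4, 20.3 and 21.8% in GSK4112 libraries, against 7.42, 8.09 and 8.40% in Control libraries. The level of Pdgfb was 1.40, 0.573 and 0.562 times that of Pdgfc in GSK4112 libraries and 4.70, 3.04 and 2.83 times that of Pdgfc in Control libraries. In GSK4112 replicates 2 and 3 Pdgfc was thus the higher of the pair, while in GSK4112 replicate 1 and in every Control library Pdgfb was. The exon length behind the Pdgfb values is not known here, so its shares and ratios to other genes carry that limit.

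**Figure D2:**
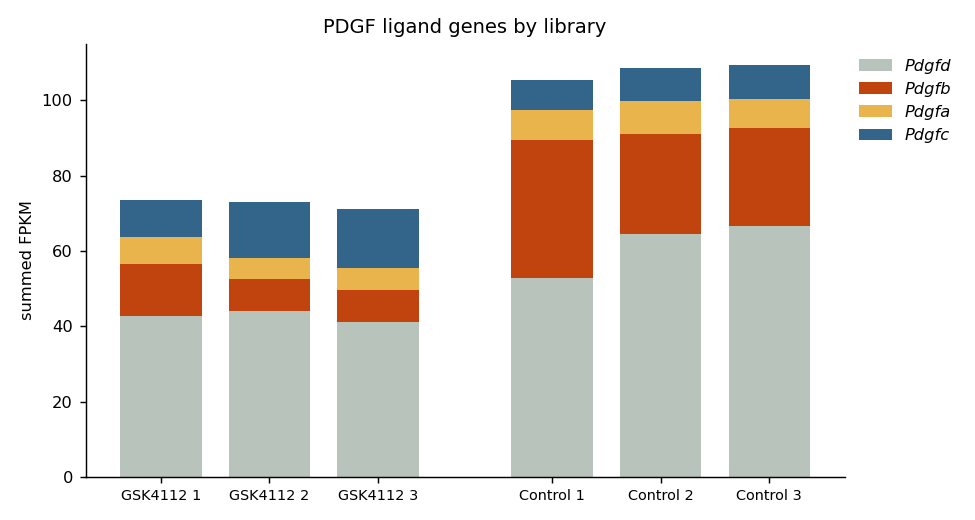
Stacked bars of the FPKM of Pdgfd, Pdgfb, Pdgfa and Pdgfc (vertical axis, summed FPKM) in each library. The GSK4112 bars end at 71.1 to 73.5 FPKM and the Control bars at 105 to 109.5 FPKM, with a thinner Pdgfb part and a thicker Pdgfc part in the GSK4112 bars.

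The PDGF receptor genes were low in every library. Pdgfra, the receptor for PDGF-AA and PDGF-CC and a gene of theca and stromal cells (ENSMUSG00000029231; chromosome 5, 75152292 to 75198215, plus strand), was at 0.773, 0.530 and 0.511 FPKM in GSK4112 libraries, against 0.698, 0.497 and 0.396 FPKM in Control libraries. These values stand for 131, 88 and 89 fragments with GSK4112 and 127, 86 and 66 fragments in Control. The groups overlapped, and the replicate 1 library was highest in each. Pdgfrb, the receptor for PDGF-BB and PDGF-DD and a gene of pericytes (ENSMUSG00000024620; chromosome 18, 61045150 to 61085061, plus strand), was at 1.23, 0.463 and 0.536 FPKM in GSK4112 libraries, against 1.43, 0.899 and 0.603 FPKM in Control libraries. It too overlapped between groups and was highest in both replicate 1 libraries, where it was 2.47 times the mean of the other GSK4112 libraries and 1.90 times that of the other Control libraries. The 4 ligand genes summed to between 36.7 and 73.6 times the 2 receptor genes in GSK4112 libraries and to between 49.6 and 110 times in Control libraries.

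Summed markers of the cells that carry PDGF receptors were highest in replicate 1 of each group, but single markers differed. For 10 markers of pericytes and smooth muscle the summed level was 165 FPKM in GSK4112 replicate 1 and 76.6 and 90.4 FPKM in the other GSK4112 libraries. It was 300.3 FPKM in Control replicate 1 and 59.3 and 63.4 FPKM in the other Control libraries. In all of these libraries most of the sum was Acta2, smooth muscle actin, and Mcam, while the pericyte channel gene Abcc9 was at most 0.0289 FPKM in any library. Notch3 was lowest in replicate 1 of each group, at 0.419, 0.631 and 0.679 FPKM in GSK4112 libraries, against 0.233, 0.490 and 0.553 FPKM in Control libraries. Cspg4, the pericyte proteoglycan NG2, was at 0.878, 0.582 and 0.637 FPKM in GSK4112 libraries, against 0.429, 0.146 and 0.212 FPKM in Control libraries, with no overlap between the groups. Of 4 tested none was called, and Mcam was lower with the block (adjusted p = 0.0365 in limma). For 12 markers of theca and stroma the sum was 60.0 FPKM in GSK4112 replicate 1 and 32.7 and 30.5 FPKM in the others, and 61.3 FPKM in Control replicate 1 and 34.6 and 36.8 FPKM in the others. Over the 6 libraries its most abundant genes were Col1a1 and Lhcgr. Lhcgr was at 25.3, 8.33 and 6.94 FPKM in GSK4112 libraries, against 3.39, 5.15 and 6.10 FPKM in Control libraries. Its groups did not overlap. Its rank rests on GSK4112 replicate 1, where it gave 25.3 of the 60.0 FPKM of the sum. Which cells its transcripts came from, granulosa cells included, was not tested. Cyp17a1, the theca gene of androgen synthesis, was at most 0.0555 FPKM and listed at 0 in GSK4112 replicate 1 and Control replicate 2. Ogn, a stromal matrix gene, was the only one of 6 tested that was called, at 1.91 ± 1.2 FPKM with GSK4112 and 10.7 ± 2.32 FPKM in Control (SD, n = 3, adjusted p = 0.0395 in limma). The part of these cells in the receptor values was not tested. For platelets, a known source of PDGF-B, 5 markers summed to between 0.959 and 1.19 FPKM in GSK4112 libraries and to between 0.806 and 1.31 FPKM in Control libraries, with Itga2b and Gp1ba the highest. Leukocyte markers, led by Lyz2 and Cd68, summed to between 17.2 and 38.6 FPKM in GSK4112 libraries and to between 7.74 and 42.3 FPKM in Control libraries, and Ptprc, which marks all leukocytes, was at most 0.0678 FPKM. Oocyte markers, led by Zp3 and Zp2, summed to at most 1.85 FPKM in GSK4112 libraries and 3.94 FPKM in Control libraries.

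Vegfb had the higher level of the 2 VEGF ligand genes among the 10. It encodes a ligand of FLT1 and NRP1 that is known from heart and muscle (ENSMUSG00000024962; chromosome 19, 6982473 to 6987651, minus strand). It was at 16.1, 14.9 and 16.5 FPKM in GSK4112 libraries, against 13.8, 16.1 and 12.7 FPKM in Control libraries. The groups overlapped, 1 of the 3 same-numbered pairs was lower with GSK4112, and the log2 change of 0.15 ± 0.1 (SE) was not called (adjusted p = 0.494 in limma). Vegfc, a lymphatic growth factor that acts through FLT4 (ENSMUSG00000031520; chromosome 8, 54077606 to 54187096, plus strand), was at 0.580, 0.493 and 0.352 FPKM in GSK4112 libraries, against 0.517, 0.662 and 1.01 FPKM in Control libraries. These were 24, 20 and 15 fragments with GSK4112 and 23, 28 and 41 fragments in Control, and the groups overlapped.

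Vegfb is shown because its promoter window holds the hexamer AGGTCA, the core that NR1D1 and many other nuclear receptors bind. The 250 bases before its RefSeq start (GRCm38.p6, chr19:6987652-6987901, minus strand) hold AGGTCA from position -241 to -236 and from -73 to -68, and GC boxes (GGGCGG). Nrp1 (chr8:128358823-128359072, plus strand) holds the hexamer once, on the other strand, from position -246 to -241; its window lies inside the gene as annotated in GENCODE M21, but in none of its exons. Capitals mark both motifs.

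Vegfb: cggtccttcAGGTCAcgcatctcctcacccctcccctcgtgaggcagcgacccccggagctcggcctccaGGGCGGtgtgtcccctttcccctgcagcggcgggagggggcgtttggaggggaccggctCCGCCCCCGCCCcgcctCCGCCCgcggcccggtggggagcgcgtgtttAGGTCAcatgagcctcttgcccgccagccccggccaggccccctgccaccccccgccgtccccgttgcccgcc

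Nrp1: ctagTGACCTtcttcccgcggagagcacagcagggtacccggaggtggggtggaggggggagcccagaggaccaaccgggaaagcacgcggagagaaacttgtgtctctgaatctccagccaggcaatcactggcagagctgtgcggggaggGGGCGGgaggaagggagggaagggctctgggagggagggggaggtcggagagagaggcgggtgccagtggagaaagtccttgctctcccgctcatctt

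Windows were found for 8 of the 10 members, not for Pdgfb and Pdgfrb. The 8 are counted as genes, of which Pdgfa had 2 windows, and the percentages are of windows. Of the 8, AGGTCA was in 2, against 14% of all windows, and GGGCGG was in 6, against 32.7%. The RORE, a longer site that NR1D1 binds as a monomer, was in none of the 8 and in 0.332% of all windows. RevDR2, a pair of AGGTCA copies in tandem with 2 bases between them (0.00913% of all windows), TGANTCA (AP-1, 6.75%), CACGTG (E-box, 6.02%) and TACGTG (HIF, 2.72%) were in none of the 8 either. All were searched on both strands, and a RevDR2 also contains AGGTCA. No match says only that these letters are not in these 250 bases.

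The VEGF receptors were close to the limit of detection. Kdr, the main signalling receptor of blood endothelium (ENSMUSG00000062960; chromosome 5, 75932827 to 75978458, minus strand), was at 0.216, 0.0268 and 0.0319 FPKM in GSK4112 libraries, against 0.244, 0.0321 and 0.0266 FPKM in Control libraries. Those were 33, 4 and 5 fragments with GSK4112 and 40, 5 and 4 fragments in Control. The exact 95% Poisson intervals were 22.7 to 46.3 fragments in GSK4112 replicate 1 and 1.09 to 10.2 fragments in GSK4112 replicate 2, against 28.6 to 54.5 fragments in Control replicate 1 and 1.62 to 11.7 fragments in Control replicate 2, and they cover counting error only. Kdr differed far more between replicate 1 and the other libraries than between the groups: replicate 1 was 7.38 times the mean of the other libraries with GSK4112 and 8.31 times in Control. Flt1, which binds VEGF ligands tightly and also has a soluble decoy form (ENSMUSG00000029648; chromosome 5, 147561604 to 147726011, minus strand), had 18, 3 and 6 fragments in GSK4112 libraries, against 12, 7 and 2 fragments in Control libraries. Flt1 was highest in replicate 1 of each group as well, but its counts are too small to order the other libraries.

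Endothelial markers varied in more than one way. Pecam1, the adhesion molecule CD31, was at 0.209, 0.204 and 0.213 FPKM in GSK4112 libraries, against 0.203, 0.223 and 0.212 FPKM in Control libraries, so it did not share the high replicate 1 values of Kdr. Emcn, endomucin, did share them, with 10, 2 and 3 fragments in GSK4112 libraries and 12, 0 and 2 fragments in Control libraries. Cd34 was lowest in both replicate 1 libraries, with 8, 31 and 49 fragments in GSK4112 libraries and 8, 78 and 36 fragments in Control libraries. The 14 endothelial markers summed to 2.10, 2.08 and 2.33 FPKM in GSK4112 libraries, against 2.60, 3.24 and 2.71 FPKM in Control libraries, with Robo4 and Esam the highest. The replicate 1 sum was thus not the highest in either group. Tie1 was at 0 in 1 GSK4112 library and in 2 Control libraries, and Erg in 2 GSK4112 libraries and 1 Control library. The part of endothelial cells, of smooth muscle markers and of mitosis genes, which were also highest in replicate 1, in the Kdr values was not tested.

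**Figure D3:**
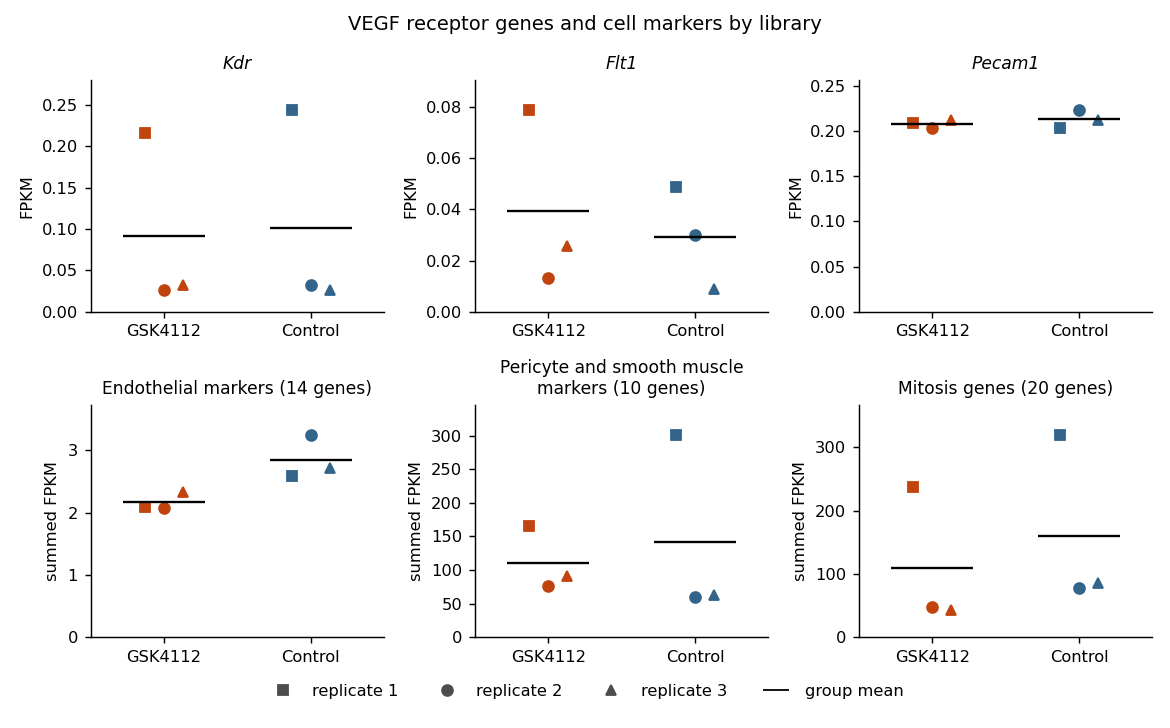
FPKM of Kdr, Flt1 and Pecam1 and summed FPKM of endothelial, pericyte and smooth muscle, and mitosis genes (vertical axes, each from 0) in the GSK4112 and Control libraries; symbols mark the replicate number and lines the group means. Kdr, smooth muscle markers and mitosis genes are highest in replicate 1 of each group, whereas Pecam1 lies between 0.203 and 0.223 FPKM in all 6 libraries.

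Nrp1 was the one receptor gene that passed the limit of 1 FPKM. It encodes neuropilin-1, which binds VEGF ligands and class 3 semaphorins and presents VEGF to KDR (ENSMUSG00000025810; chromosome 8, 128358604 to 128503363, plus strand). It was at 3.02, 1.43 and 1.32 FPKM in GSK4112 libraries, against 4.14, 2.23 and 2.90 FPKM in Control libraries. The groups overlapped because GSK4112 replicate 1 lay above Control replicates 2 and 3, and GSK4112 was lower in each same-numbered pair. That direction in all 3 pairs was seen in 18.6% of the genes tested. The log2 change was -0.51 ± 0.27 (SE), not called without a block (adjusted p = 0.392 in limma) or with it (0.0684).

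**Figure D4:**
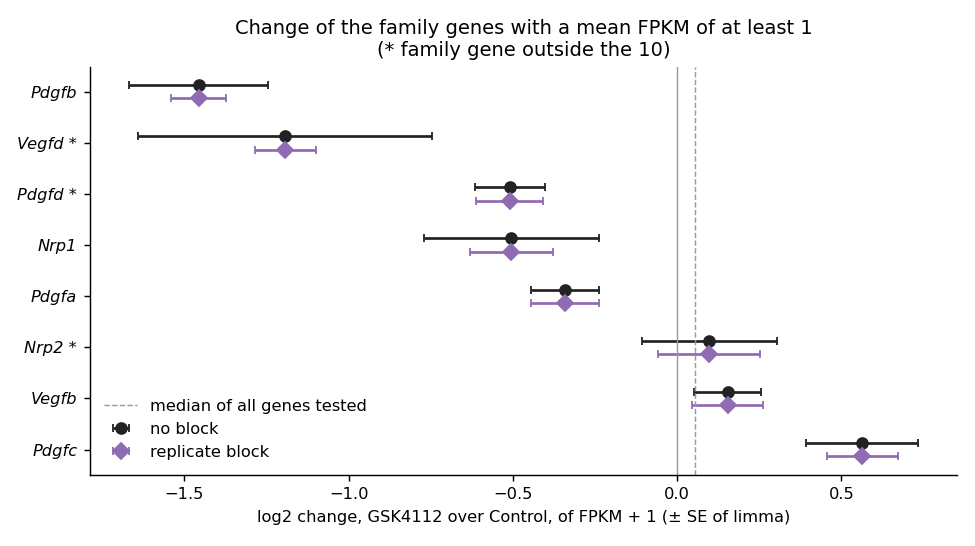
Log2 change of FPKM + 1, GSK4112 over Control (horizontal axis, with the SE of limma as bars), for the 5 tested members and the 3 other family genes with a mean of at least 1 FPKM (asterisks), without and with the replicate block. Pdgfb at -1.46 and Vegfd at -1.19 lie farthest below 0, and Pdgfc at 0.56 lies farthest above; the block changes the bars and not the points.

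Of 7 family genes listed outside the 10, 6 were in the deposited table. No level of Vegfa, another VEGF ligand gene, is given here, so Vegfb is not ranked against it. Of the 6, none was called without a block, and Vegfd and Pdgfd were lower with it. Vegfd, the other lymphatic ligand of FLT4, was at 5.99, 2.21 and 1.96 FPKM in GSK4112 libraries, against 15.3, 5.85 and 6.09 FPKM in Control libraries. The replicate 1 value was 2.88 times the mean of the others with GSK4112 and 2.57 times in Control, so the groups overlapped, while the ratio within same-numbered libraries was 0.391, 0.377 and 0.322. Its log2 change was -1.19 ± 0.45 (SE) without the block (adjusted p = 0.251 in limma) and -1.19 ± 0.0926 with it (0.00314). Nrp2, the co-receptor of the lymphatic ligands, was at 9.83, 13.6 and 12.2 FPKM in GSK4112 libraries, against 9.42, 9.13 and 15.1 FPKM in Control libraries. Below 1 FPKM were Flt4 (mean 0.316 with GSK4112 and 0.281 in Control), Pgf, a FLT1 ligand (0.135 with GSK4112 and 0.0584 in Control), and Pdgfrl, a receptor-like gene (0.622 with GSK4112 and 0.682 in Control). Pgf had only 12, 2 and 6 fragments in GSK4112 libraries and 6, 1 and 2 in Control libraries, and its groups overlapped.

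Proteins that process, hold or share the ligands were read from a list of 30 genes. Of 24 tested, 1 fell and 23 did not pass, and with the block 3 were higher and 5 lower. The block gave 3.07% higher and 3.82% lower over all genes tested. The list's median log2 change was -0.15, against 0.0543 over all genes tested. The one that fell was Sdc4, a heparan sulfate proteoglycan that holds growth factors at the cell surface. It was at 106, 82.5 and 83.0 FPKM in GSK4112 libraries, against 174, 164 and 149 FPKM in Control libraries (log2 change -0.84 ± 0.13 SE, adjusted p = 0.0443 in limma). The highest GSK4112 value of Sdc4 lay well below the lowest Control value. The most abundant genes of the list, Sparc, a matrix protein that binds PDGF, and the integrin gene Itgb1, were at 513 ± 36.7 and 257 ± 9.38 FPKM with GSK4112 and at 532 ± 35.0 and 269 ± 13.6 FPKM in Control (SD, n = 3), and neither was called. Higher with the block were Gpc1, another heparan sulfate proteoglycan, the integrin subunit gene Itgb3 and the semaphorin receptor gene Plxnd1. Gpc1 was at 82.2 ± 10.6 FPKM with GSK4112 and 48.0 ± 6.74 FPKM in Control (SD, n = 3, adjusted p = 0.0102 in limma with the block). Itgb3 was at 7.63 ± 0.987 FPKM with GSK4112 and 4.23 ± 0.6 FPKM in Control, and Plxnd1 at 9.03 ± 0.569 FPKM with GSK4112 and 5.33 ± 1.03 FPKM in Control. Lower with the block were the proprotein convertase gene Pcsk5, the urokinase gene Plau, the ephrin gene Efnb2 and the semaphorin gene Sema3c, besides Sdc4. Plau, whose product is known to activate PDGF-D, was at 20.1, 22.6 and 25.7 FPKM in GSK4112 libraries, against 86.4, 39.4 and 43.1 FPKM in Control libraries (adjusted p = 0.118 without and 0.048 with the block in limma). Plat, whose product activates PDGF-C, was at 7.13 ± 0.816 FPKM with GSK4112 and 5.42 ± 0.541 FPKM in Control (SD, n = 3). It was not called with or without the block, and was called without the replicate 1 libraries of both groups (log2 change 0.49, adjusted p = 0.0438 in limma). Plat was named for its role, but after its values were seen.

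Of 43 tested genes that carry the signal of these receptors, 1 rose and 42 did not pass (median log2 change 0.0809). With the block 2 were higher and 1 lower, against 3.07% higher and 3.82% lower over all genes tested. The one that rose was Stat3, a transcription factor that receptor tyrosine kinases and cytokine receptors activate. It was at 18.7, 20.7 and 19.7 FPKM in GSK4112 libraries, against 13.1, 13.1 and 13.3 FPKM in Control libraries (log2 change 0.55 ± 0.0737 SE, adjusted p = 0.0368 in limma). Sphk1, the kinase that makes sphingosine 1-phosphate, was higher with the block (5.98 ± 2.36 FPKM with GSK4112 and 2.83 ± 1.25 FPKM in Control, adjusted p = 0.00815 in limma with the block). Pik3r1, a regulatory subunit of PI 3-kinase, was lower with it (78.6 ± 31.3 FPKM with GSK4112 and 129 ± 49.9 FPKM in Control, adjusted p = 0.0103 in limma with the block); in both genes the groups overlapped. Mapk3, which encodes the kinase ERK1 and with Pik3r1 is the most abundant of the list over the 6 libraries, was at 98.0 ± 13.7 FPKM with GSK4112 and 95.4 ± 12.7 FPKM in Control and was not called. No gene of the pathway lists was called without GSK4112 replicate 2 or 3 or without Control replicate 2 or 3, and none was higher without Control replicate 1.

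Early response and feedback genes, which growth factor receptors induce, gave no call among 20 tested without a block in limma, and with it 9 were lower and none higher. Over all genes tested the block gave 3.82% lower and 3.07% higher. The list's median log2 change was -0.48, against 0.0543 over all genes tested. Below 0 were 16 of the 20, and the share of all genes below 0 is not given here. The mitosis list had a like count, with 9 of 20 lower with the block and a median of -0.55, and its part in these values was not tested. Fos was at 9.16, 1.62 and 1.98 FPKM in GSK4112 libraries, against 67.4, 7.39 and 6.87 FPKM in Control libraries (adjusted p = 0.354 without and 0.0118 with the block in limma). Egr1 was at 11.6, 4.86 and 4.93 FPKM in GSK4112 libraries, against 32.3, 15.2 and 15.9 FPKM in Control libraries (0.137 and 0.00183). In both genes replicate 1 was far above the other libraries of its group, and the groups overlapped for Fos and not for Egr1. Ier3 and the phosphatase gene Dusp4 were the most abundant of the list over the 6 libraries, at 135 ± 37.6 and 113 ± 46.2 FPKM with GSK4112 and at 227 ± 32.5 and 90.5 ± 20.9 FPKM in Control (SD, n = 3). The other 7 that were lower with the block were Fosb, Ier2, Ier3, Dusp6, Myc, Dusp5 and Junb.

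Of 13 tested hypoxia and angiogenic genes outside the families, none was called without a block (median log2 change -0.52). With it 4 were lower and none higher, against 3.82% lower and 3.07% higher over all genes tested. The 4 were Thbs1, an inhibitor of angiogenesis, Ccn1, Epas1 and Adm. Thbs1 was at 543, 529 and 496 FPKM in GSK4112 libraries, against 1540, 912 and 1225 FPKM in Control libraries (adjusted p = 0.0539 without and 0.0194 with the block in limma). Its groups did not overlap, and its level was the highest of the list. Ccn1, a matrix protein that is the next most abundant, was at 359, 113 and 129 FPKM in GSK4112 libraries, against 497, 243 and 298 FPKM in Control libraries, and overlapped between groups.

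**Figure D5:**
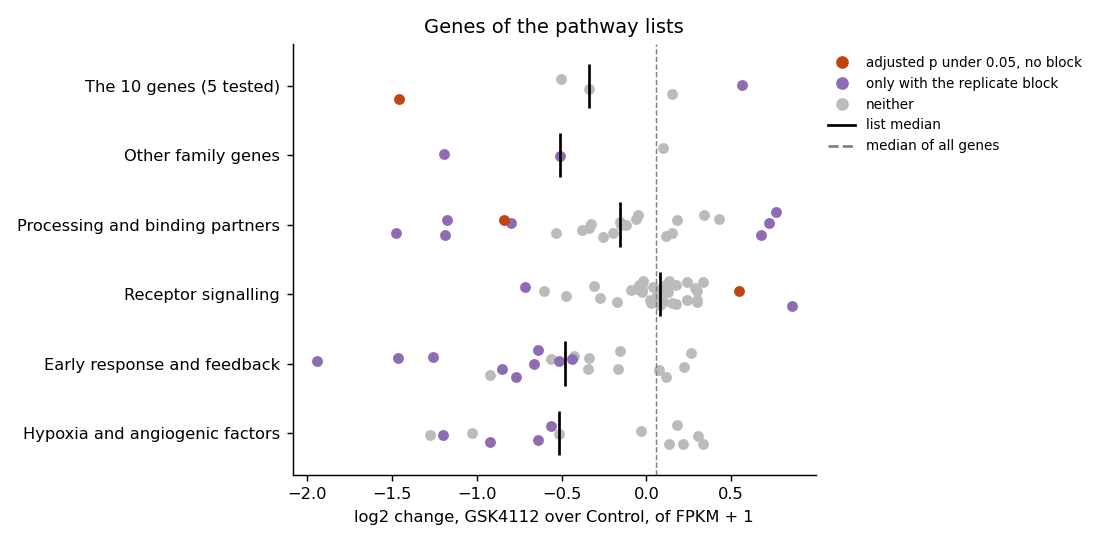
Log2 change of FPKM + 1, GSK4112 over Control (horizontal axis), of each tested gene in the 10-gene set and 5 pathway lists (rows); black ticks are list medians, the dashed line is the median of all genes tested (0.0543), and colours give the adjusted p in limma. Called without a block are Pdgfb, Sdc4 and Stat3, and the early response row lies mostly left of 0.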

How the data were processed

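The authors deposited a single table of FPKM values with 27151 Ensembl IDs as rows and 6 libraries as columns, and the column names gave the samples. The submitters' processing notes name the build GRCm38. Which aligner, counter, annotation and strand setting were used is not given in the sources used here. GENCODE M21 supplied symbols, coordinates and exon lengths (27098 IDs found, 53 not).

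Multiplying FPKM by exon length gave the steps from which library totals were read; 92.8 to 93.1% of values below 500 fragments came out whole within 0.01. Values of Pdgfb did not, so no fragment count is given for it.

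The fit used limma 3.58.1 (R 4.3.3), with a variance trend and no block, on log2(FPKM + 1) for the 12181 genes whose mean was at least 1 FPKM. This scale understates changes of low genes. A call is a 2-sided Benjamini-Hochberg adjusted p under 0.05 over all genes. The procedure was tested on simulated data. Deviations of same-numbered libraries from their group means correlated at 0.665, 0.326 and 0.213 over genes, each above the limit of 0.1, so the replicate number was also used as a block. This pairing rests on the values alone. GSK4112 replicate 2 correlated more with Control replicate 3 (0.530), and GSK4112 replicate 3 more with Control replicate 2 (0.357), than with their own numbers. Replicate 1 alone thus correlated best with its own. Deviations from a group mean sum to 0, so agreement of the replicate 1 libraries pulls the others together in any pairing. The limit therefore cannot show that replicates 2 and 3 are paired by number.

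Members and lists were chosen with earlier results of these data known. The genes named are the members, the other family genes, up to 3 called rises and 3 called falls of each pathway list with its 2 most abundant genes where fewer than 2 were called, the 2 most abundant markers of each cell type and markers at 0, and the 3 genes most like each called member. Genes called with the block alone, Plat, called markers and other markers given singly were chosen after their values were seen. Promoter sequences are from RefSeq (GRCm38.p6).

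Tried as alternatives were other pseudocounts (0.1 and 0.5), no filter and a stricter one (mean FPKM of 5), TPM, median-of-ratios and quantile scaling, limma without the trend, robust or with sample weights, limma-voom on recovered fragments, the replicate block, and libraries left out.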

Additional observations from a re-analysis of the deposited data

How the results depend on the processing

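Over 21 alternatives the log2 changes of Pdgfa, Pdgfb, Pdgfc, Vegfb and Nrp1 kept their direction wherever they were tested (20 alternatives for Nrp1). Pdgfb ran from -1.66 to -1.30 and kept its call in 15; its adjusted p in limma was 0.115 without a filter. Pdgfc ran from 0.45 to 0.75 and was called in 6, and Pdgfa was called in 1, with sample weights (adjusted p = 0.0446). Without a filter 26 genes, 0 members (3 at an unadjusted p under 0.05) and 0 other pathway genes (32) were called. Sample weights gave 830 genes (470 higher, 360 lower), 3 members and 19 other pathway genes. The replicate block gave 839, 2 and 26, and all 126 genes called without it were among the 839 in the same direction; with median-of-ratios scaling as well the block gave 786 (240 higher, 546 lower), 2 and 26. Without replicate 1 of both groups there were 837, 2 and 26 calls, and 1105, 2 and 33 with the block. Other pathway genes called were 1 without the trend and 4 with limma-voom, which called 170 genes in all. Leaving out 1 library gave 0 to 149 genes, 0 to 2 members and 0 to 4 other pathway genes; the 0 over all genes came without GSK4112 replicate 2, GSK4112 replicate 3 or Control replicate 3 (1219, 1315 and 1841 genes at an unadjusted p under 0.05 in limma). Without Control replicate 2, 8 genes were called. Members called were 0 without any 1 library other than GSK4112 replicate 1, with 1 to 4 at an unadjusted p under 0.05, and 2 without that library. The cause of these differences was not tested. Depth limits Flt1 and Kdr, with 2 to 40 fragments, and Pgf, with 1 to 12 fragments.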
